A study of Mus musculus with 18 samples.

Results

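Cytochrome P450 enzymes are heme proteins that add oxygen to drugs, steroids, fatty acids, retinoids and vitamins, and the liver is their main site in mice. Those outside family 2 are described here in hepatocytes of mice with and without Mtdh, a gene that encodes an RNA-binding membrane protein. They were chosen by gene symbol alone, with Cyp7a1, Cyp7b1, Cyp8b1 and Cyp27a1 left out, which gave 42 of the 16873 genes in the deposited table. Families 1, 3 and 4 held 3, 9 and 17 of them, and 13 belonged to other families.

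Hepatocytes came from tumour-free, age-matched mice that either lacked Mtdh (KO) or were wild-type (WT). Before RNA sequencing, cells of either genotype received TNFa, TGFb or CM, the last being medium conditioned by Kupffer cells, the liver's resident macrophages, after Py8119-EVPs had been added to these. The 6 groups were TNFa KO and TNFa WT, TGFb KO and TGFb WT, and CM KO and CM WT, with 3 libraries each. All groups had received 1 of the 3 treatments, and no untreated cells were analysed here. The sources used here give no dose, no duration, no sex or age of the mice, no strain and no account of how Mtdh was disrupted. The submitters call the replicates biological without saying whether each came from a mouse of its own, so the p-values below measure the spread between these libraries.

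Mtdh lay between 581 and 973 in the 9 KO libraries and between 10063 and 13725 in the 9 WT libraries, in deposited normalized values. Its KO mean came to 5.61% (TNFa), 7.15% (TGFb) and 6.79% (CM) of that in WT. Estimated depth ran between 19.4 and 35.6 M reads per library. All 8 hepatocyte markers (Alb, Apoa1, Ttr, Tdo2, Cps1, Serpina1c, Hnf4a and Tat) were read in each group, and Alb alone held between 5.84% and 10.3% of a library's summed values. In KO 3 of the 8 were higher and 2 lower with TNFa, 4 and 0 with TGFb, and 4 and 0 with CM. Their summed value was 1431082 to 1520329 in TNFa KO, against 1489146 to 1566354 in TNFa WT. With TGFb it was 2851065 to 3069081 in KO, against 2022178 to 2135141 in WT. With CM it was 2330491 to 2409253 in KO, against 1726093 to 1807162 in WT. Markers of other liver cells were also read. Of 12 Kupffer cell and macrophage markers, 7, 9 and 8 were higher in KO under TNFa, TGFb and CM, and 0 were lower. Their summed value was 6325 to 7292 in TNFa KO, against 3402 to 4057 in TNFa WT, 4935 to 5989 in TGFb KO, against 2774 to 3316 in TGFb WT, and 4825 to 5049 in CM KO, against 2337 to 2869 in CM WT. Among them Timd4 was at 0 in all TGFb WT libraries. Of 10 sinusoidal endothelial markers, 5, 2 and 1 were higher in KO with TNFa, TGFb and CM, and 0 were lower. Their sum was 5833 to 6175 in TNFa KO, against 3207 to 3603 in TNFa WT, 4940 to 6091 in TGFb KO, against 3634 to 4054 in TGFb WT, and 4409 to 4666 in CM KO, against 2947 to 3613 in CM WT, with no marker at 0 throughout a group. Of 8 mitochondrially encoded transcripts, read as a sign of RNA quality, 2, 2 and 1 were higher in KO under TNFa, TGFb and CM, and 0 were lower. Their sum was 909629 to 1194149 in TNFa KO, against 514579 to 1062884 in TNFa WT, 1168188 to 1588520 in TGFb KO, against 822868 to 1020898 in TGFb WT, and 716934 to 1399085 in CM KO, against 820303 to 949257 in CM WT. Whether such cells, these transcripts or the hepatocyte markers' difference contribute to the differences in P450 genes was not tested. In bulk RNA, fewer cells that express a gene and less of its RNA per cell cannot be told apart.

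P450 genes of the liver are switched by ligand-activated receptors. The aryl hydrocarbon receptor acts on family 1, the pregnane X and constitutive androstane receptors on family 3, PPARalpha on the Cyp4a genes, and retinoic acid receptors on the Cyp26 genes. Family 3 enzymes oxidise drugs and steroids, family 4 enzymes hydroxylate the far end of fatty acids and eicosanoids, and Cyp26 enzymes clear retinoic acid. Several mouse P450 genes are also known to differ between male and female liver, with Cyp3a41a, Cyp3a41b and Cyp3a44 as female-predominant forms and the Cyp4a12 genes as male-predominant ones. Inflammatory cytokines are known to lower many hepatic P450 mRNAs.

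The sequence upstream of the transcription start is shown for 6 family 3 genes, because closely related neighbours in this family went opposite ways in KO, and for Cyp26a1, because it was higher in KO under each treatment. The windows are the 250 bases before the start as RefSeq places it on GRCm38.p6, a build other than the mm39 of the deposited table. They are written 5′ to 3′ on the gene's own strand, and windows of 29 of the 42 genes were at hand. Capitals mark letter matches that were chosen after looking at the windows. They are CAAAGTCCA, CAAAGGTCA (which holds the half-site AGGTCA) or, for Cyp26a1, the direct repeat of AGTTCA with 5 bases of any kind between its copies, read on the opposite strand.
Cyp3a11 (chr5:145879855-145880104, minus strand): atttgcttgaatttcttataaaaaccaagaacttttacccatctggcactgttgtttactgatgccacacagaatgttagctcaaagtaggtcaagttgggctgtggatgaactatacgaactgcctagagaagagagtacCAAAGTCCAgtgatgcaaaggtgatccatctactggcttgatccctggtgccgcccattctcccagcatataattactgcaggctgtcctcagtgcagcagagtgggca
Cyp3a25 (chr5:146009619-146009868, minus strand): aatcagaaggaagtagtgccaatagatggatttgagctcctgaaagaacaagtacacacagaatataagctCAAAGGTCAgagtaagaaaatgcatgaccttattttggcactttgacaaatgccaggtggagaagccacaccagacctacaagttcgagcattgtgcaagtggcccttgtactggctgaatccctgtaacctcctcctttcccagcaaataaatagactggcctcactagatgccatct
Cyp3a59 (chr5:146079008-146079257, plus strand): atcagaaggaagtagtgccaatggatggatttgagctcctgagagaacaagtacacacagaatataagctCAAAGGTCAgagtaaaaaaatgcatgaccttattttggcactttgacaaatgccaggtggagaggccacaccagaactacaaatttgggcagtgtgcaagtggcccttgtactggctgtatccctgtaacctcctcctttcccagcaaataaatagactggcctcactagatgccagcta
Cyp3a41a (chr5:145720137-145720386, minus strand): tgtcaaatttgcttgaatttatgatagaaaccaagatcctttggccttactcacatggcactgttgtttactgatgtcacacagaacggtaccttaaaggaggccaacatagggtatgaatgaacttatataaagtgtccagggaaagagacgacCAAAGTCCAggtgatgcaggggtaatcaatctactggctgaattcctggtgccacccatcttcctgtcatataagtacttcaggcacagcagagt
Cyp3a44 (chr5:145805875-145806124, minus strand): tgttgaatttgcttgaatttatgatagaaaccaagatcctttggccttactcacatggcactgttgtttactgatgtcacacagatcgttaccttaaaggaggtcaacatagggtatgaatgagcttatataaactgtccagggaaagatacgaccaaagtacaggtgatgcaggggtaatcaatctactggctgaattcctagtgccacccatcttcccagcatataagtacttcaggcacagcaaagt
Cyp3a16 (chr5:145469724-145469973, minus strand): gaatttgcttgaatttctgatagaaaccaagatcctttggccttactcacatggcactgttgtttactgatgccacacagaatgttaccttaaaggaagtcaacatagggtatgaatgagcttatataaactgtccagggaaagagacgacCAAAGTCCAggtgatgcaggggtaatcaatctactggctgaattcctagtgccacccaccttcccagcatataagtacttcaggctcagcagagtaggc
Cyp26a1 (chr19:37697558-37697807, plus strand): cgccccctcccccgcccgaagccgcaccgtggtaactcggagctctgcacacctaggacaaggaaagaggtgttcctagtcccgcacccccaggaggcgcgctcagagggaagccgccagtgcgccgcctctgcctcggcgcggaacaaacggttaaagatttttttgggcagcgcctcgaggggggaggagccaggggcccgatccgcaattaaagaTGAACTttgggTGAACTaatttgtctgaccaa

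The windows fell into groups of close copies. Those of Cyp3a41a and Cyp3a41b were 99.6% identical, Cyp3a44 was 94.4% and Cyp3a16 91.2% identical to Cyp3a41a, and Cyp3a25 was 94.8% identical to Cyp3a59. The Cyp3a11 window was 71.2% identical to that of Cyp3a41a and 52.8% to that of Cyp3a25. For scale, the Cyp3a13 window ran between 47.6% (to Cyp3a59) and 55.6% (to Cyp3a16). How unrelated windows score by this measure was not computed. CAAAGTCCA stood in the windows of Cyp3a11, Cyp3a16, Cyp3a41a and Cyp3a41b, and in 0.384% of all 32851 windows of this length, both strands searched. CAAAGGTCA stood in those of Cyp3a25, Cyp3a59 and Cyp3a57, and in 0.426% of all windows. The direct repeat stood in the Cyp26a1 window, between 32 and 16 bases before the start, and in 0.0213% of all windows. No match to these letters was present in the Cyp3a44 window. The half-site AGGTCA alone stood in the windows of Cyp3a44 and Cyp3a11, and how common it is in all windows was not counted. A match describes letters in the window and no binding was measured.

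Of the 42 genes, 33 reached a normalized value of 10 in 3 libraries or more and were tested among 14455 genes. The other 9, Cyp1b1, Cyp3a57, Cyp4a12a, Cyp4a12b, Cyp4f37, Cyp4f39, Cyp11a1, Cyp11b2 and Cyp24a1, did not exceed 23.6 in any library. They include the male-predominant Cyp4a12a and Cyp4a12b, steroid hydroxylases of the adrenal (Cyp11a1 and Cyp11b2) and the vitamin D hydroxylase Cyp24a1. A further 8 genes were tested with a mean below 50, and these were Cyp1a1, Cyp4a32, Cyp4f18, Cyp11b1, Cyp21a1, Cyp26c1, Cyp27b1 and Cyp46a1. Per kilobase of transcript and averaged over the 6 groups, Cyp3a11 had the highest level of the 33, at 47679 normalized units. Cyp3a41a followed at 21468, Cyp3a25 at 10033, Cyp4a14 at 4671 and Cyp3a41b at 4110.1.

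In KO against WT hepatocytes, 13 of the 33 tested P450 genes rose under at least 1 treatment, among them Cyp1a2, Cyp3a11, Cyp17a1 and both retinoic acid hydroxylases Cyp26a1 and Cyp26b1, beside 10.8% of all 14455 tested genes. Under at least 1 treatment 7 fell, beside 8.87% of all tested genes, among them the female-predominant Cyp3a41a, Cyp3a41b and Cyp3a44, and Cyp3a13 did both. In all, 19 passed the threshold (limma on log2 values, Benjamini-Hochberg adjusted p below 0.05 over all genes) under at least 1 treatment, beside 19.6% of all tested genes, and 14 under none. Values after ± in what follows are standard errors of the log2 fold change, with 3 libraries in each group. With TNFa, 8 were higher and 7 lower in KO, beside 4.19% of all tested genes called higher, 3.7% called lower and 7.89% in either direction. With TGFb, 12 were higher and 4 lower, beside 7.25% and 4.95% of all genes, or 12.2% together. With CM, 9 were higher and 3 lower, beside 5.62% and 3.77% of all genes, or 9.39% together. The median log2 fold change of the 33 genes was 0.09 with TNFa, 0.50 with TGFb and 0.26 with CM, while that of all genes was 0.02, -0.01 and -0.01. For the 8 hepatocyte markers this median was -0.05 with TNFa, 0.51 with TGFb and 0.41 with CM. For the 39 tested genes of family 2 it was 0.28, 0.65 and 0.41. KO and WT libraries did not overlap for 20, 20 and 18 of the 33 genes under TNFa, TGFb and CM. Among all 14455 tested genes this held for 3582, 3857 and 3716, so groups that lie apart were common. Cyp1a2, Cyp4f14, Cyp4f15, Cyp17a1 and Cyp26a1 rose in KO under each of the 3 treatments, and Cyp3a41a and Cyp3a44 fell under each. Family 2, as a point of comparison, had 12 higher and 3 lower of 39 tested genes with TNFa, 20 and 2 with TGFb, and 15 and 1 with CM. The shares of all tested genes given here for each treatment also stand beside the KO counts of families and gene lists in the other paragraphs.

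**Figure D1:**
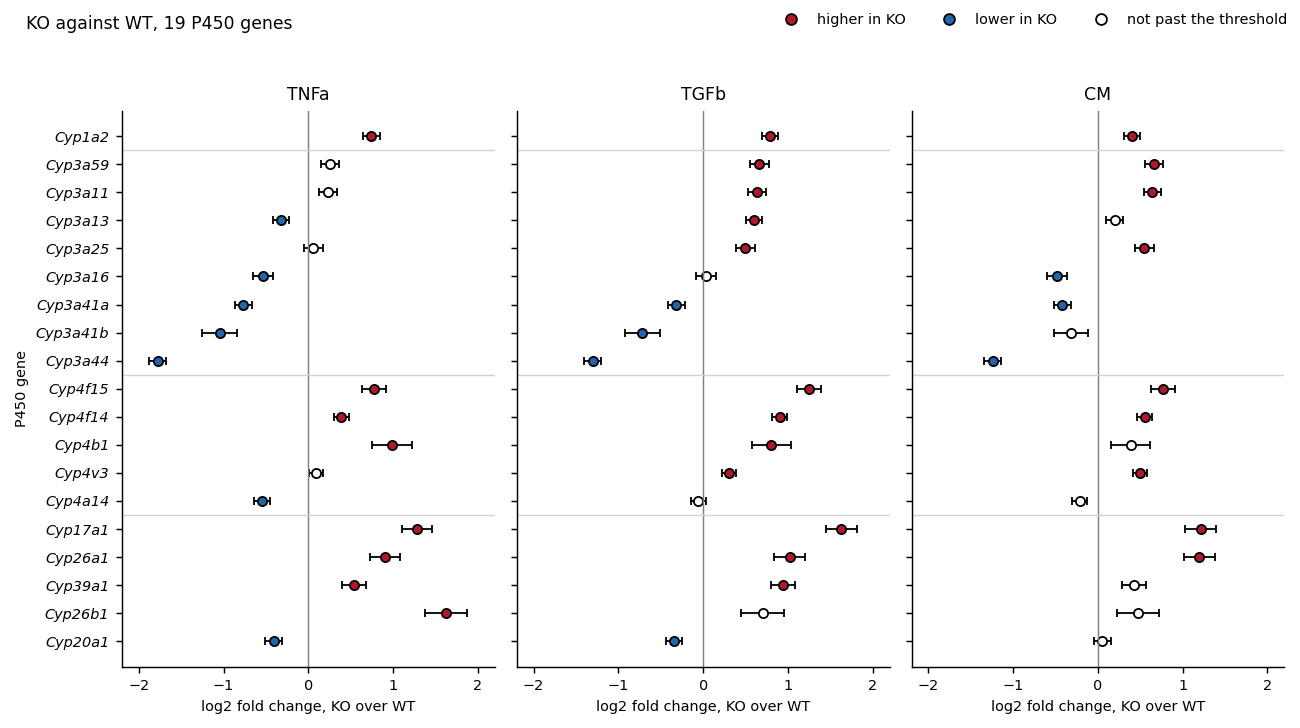
Log2 fold change of KO over WT (x axis) for the 19 P450 genes (y axis, grouped by family) that passed the threshold under at least 1 treatment, with a panel for each treatment. Points are the limma estimates, bars their standard errors, and colour shows the call. Cyp3a44 lies farthest to the left in each panel, while Cyp17a1 lies beyond 1 in all 3.

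Family 3 genes went both ways. All 9 lie on chromosome 5, 8 of them in a cluster that starts with Cyp3a57 at 145282089 and ends with Cyp3a59 at 146050098 (mm39, as listed in the deposited table), with Cyp3a13 apart at 137891194 to 137919882. In order of position, the cluster's tested genes are Cyp3a16, Cyp3a41b, Cyp3a41a and Cyp3a44, none of which was called higher in KO, followed by Cyp3a11, Cyp3a25 and Cyp3a59, none of which was called lower. Of the 8 tested genes, 0 were higher and 5 lower with TNFa, 4 higher and 3 lower with TGFb, and 3 higher and 3 lower with CM. Of all tested genes, 4.19% were higher and 3.7% lower with TNFa, 7.25% and 4.95% with TGFb, and 5.62% and 3.77% with CM. Coding sequences within the cluster are near copies (GENCODE M21), 99.9% identical between Cyp3a41a and Cyp3a41b, 97.5% between Cyp3a25 and Cyp3a59, 95.8% between Cyp3a44 and Cyp3a41a and 95.2% between Cyp3a11 and Cyp3a41a. How reads that fit several copies were counted is not given in the sources used here, so the split between such pairs is uncertain.

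Cyp3a44 (ENSMUSG00000054417, chromosome 5, 145710793 to 145742685, minus strand, mm39) showed the largest fall of the 19 genes in each KO comparison. It encodes a steroid and drug oxidase known as a female-predominant form. With TNFa, Cyp3a44 had values of 904, 892 and 963 in KO hepatocytes, against 3148, 3293 and 3039.7 in WT hepatocytes. With TGFb, Cyp3a44 had 1756, 2116 and 1707 in KO hepatocytes, against 4692, 4631 and 4412 in WT hepatocytes. With CM, Cyp3a44 had 1706, 1531 and 1916 in KO hepatocytes, against 3974, 3613 and 4624 in WT hepatocytes. The KO libraries were the lower ones under every treatment and did not overlap with WT. The log2 fold changes (± SE) were -1.78 ± 0.10, adjusted p = 9.11e-13 with TNFa, -1.31 ± 0.10, adjusted p = 1.32e-10 with TGFb and -1.24 ± 0.10, adjusted p = 7.94e-10 with CM.

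Cyp3a41a (ENSMUSG00000075551, chromosome 5, 145630859 to 145656947, minus strand, mm39), another female-predominant form, fell as well. With TNFa, Cyp3a41a had 20752, 24979.5 and 21036 in KO hepatocytes, against 39144, 35169 and 38974 in WT hepatocytes. With TGFb, Cyp3a41a had 46683, 51973 and 47561 in KO hepatocytes, against 60019, 64539.8 and 57948 in WT hepatocytes. With CM, Cyp3a41a had 42207, 39998 and 40215 in KO hepatocytes, against 58695, 45797 and 60342 in WT hepatocytes. The genotypes did not overlap under any treatment. Log2 fold changes were -0.77 ± 0.10, adjusted p = 3.60e-06 with TNFa, -0.32 ± 0.10, adjusted p = 0.0331 with TGFb and -0.42 ± 0.10, adjusted p = 0.00577 with CM. The TGFb call was lost without KO replicate 1 or 3 or any 1 of the WT replicates, with log2 fold changes between -0.35 and -0.28 and adjusted p between 0.052 and 0.146 and with no filter on low values (adjusted p = 0.0614).

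Cyp3a41b (ENSMUSG00000075552, chromosome 5, 145495474 to 145521541, minus strand, mm39), its near-identical copy, was more scattered. With TNFa, Cyp3a41b had 3393, 4250.1 and 3724 in KO hepatocytes, against 7328, 10326 and 6259.9 in WT hepatocytes. With TGFb, Cyp3a41b had 11767, 9756 and 5218 in KO hepatocytes, against 15206, 11148 and 15792 in WT hepatocytes. With CM, Cyp3a41b had 7393, 7341 and 6512 in KO hepatocytes, against 7787, 7128 and 12371 in WT hepatocytes. KO and WT libraries were apart with TNFa and overlapped with TGFb and CM. The gene fell with TNFa (log2 fold change -1.05 ± 0.21, adjusted p = 0.00102) and TGFb (-0.72 ± 0.21, adjusted p = 0.0176), while with CM the log2 fold change was -0.32 ± 0.21, adjusted p = 0.401. Without KO replicate 3 the TGFb value was -0.37 (adjusted p = 0.241), and that call was also lost without WT replicate 1 (-0.65, adjusted p = 0.0809) or 3 (-0.63, adjusted p = 0.0994).

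Cyp3a16 (ENSMUSG00000038656, chromosome 5, 145373119 to 145406534, minus strand, mm39), known mainly from fetal and newborn liver, is the other gene of this run of neighbours. With TNFa, Cyp3a16 had 634, 542 and 579.8 in KO hepatocytes, against 909, 851 and 782 in WT hepatocytes. With TGFb, Cyp3a16 had 1741, 2010.2 and 1789 in KO hepatocytes, against 1879, 1872 and 1660.0 in WT hepatocytes. With CM, Cyp3a16 had 1295, 1557 and 1150.0 in KO hepatocytes, against 2099.7, 1638 and 1845 in WT hepatocytes. It was below WT in all KO libraries with TNFa and CM, whereas the TGFb groups overlapped. Log2 fold changes were -0.53 ± 0.12, adjusted p = 0.0046 with TNFa, 0.03 ± 0.12, adjusted p = 0.914 with TGFb and -0.48 ± 0.12, adjusted p = 0.00891 with CM. The CM call was lost without KO replicate 3 (-0.38, adjusted p = 0.0855) or WT replicate 1 (-0.39, adjusted p = 0.0752).

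Cyp3a11 (ENSMUSG00000056035, chromosome 5, 145791236 to 145816775, minus strand, mm39), the main Cyp3a enzyme of mouse liver and a classical target of the pregnane X receptor, went the other way. With TNFa, Cyp3a11 had 78876, 89479 and 80962 in KO hepatocytes, against 71774, 71445 and 68784 in WT hepatocytes. With TGFb, Cyp3a11 had 160009, 175664 and 160159 in KO hepatocytes, against 108068, 105194 and 106261 in WT hepatocytes. With CM, Cyp3a11 had 149725, 146275 and 150899 in KO hepatocytes, against 99948, 81863 and 106272 in WT hepatocytes. All KO libraries lay above all WT libraries of the same treatment. It rose with TGFb (log2 fold change 0.63 ± 0.10, adjusted p = 4.42e-05) and CM (0.64 ± 0.10, adjusted p = 6.57e-05), while the TNFa difference of 0.23 ± 0.10 did not pass (adjusted p = 0.188).

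Cyp3a25 (ENSMUSG00000029630, chromosome 5, 145914004 to 145946429, minus strand, mm39) and its close copy Cyp3a59, at the end of the cluster, were read at different levels but gave similar fold changes. With TNFa, Cyp3a25 had 13169.8, 15804 and 13359 in KO hepatocytes, against 13342, 14760.4 and 12451 in WT hepatocytes. With TGFb, Cyp3a25 had 28874, 33851 and 28018 in KO hepatocytes, against 22499, 20416 and 21139 in WT hepatocytes. With CM, Cyp3a25 had 24016, 24007 and 24792 in KO hepatocytes, against 19012, 12623 and 19059 in WT hepatocytes. The TNFa groups overlapped, the others did not. The CM WT replicate 2 library was the lowest of its group, as it was for the other 7 tested family 3 genes. The log2 fold change was 0.06 ± 0.12, adjusted p = 0.831 with TNFa, 0.50 ± 0.12, adjusted p = 0.00301 with TGFb and 0.55 ± 0.12, adjusted p = 0.00169 with CM.

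For Cyp3a59 (ENSMUSG00000061292, chromosome 5, 146016067 to 146050098, plus strand, mm39) the genotypes were apart under all 3 treatments. With TNFa, Cyp3a59 had 1606, 1612 and 1831 in KO hepatocytes, against 1338, 1478 and 1395 in WT hepatocytes. With TGFb, Cyp3a59 had 3526, 3965 and 3835 in KO hepatocytes, against 2435, 2180.2 and 2534 in WT hepatocytes. With CM, Cyp3a59 had 2739, 2826 and 3018 in KO hepatocytes, against 2145, 1532 and 1808 in WT hepatocytes. Log2 fold changes were 0.26 ± 0.11, adjusted p = 0.144 with TNFa, 0.66 ± 0.11, adjusted p = 3.55e-05 with TGFb and 0.66 ± 0.11, adjusted p = 7.34e-05 with CM.

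**Figure D2:**
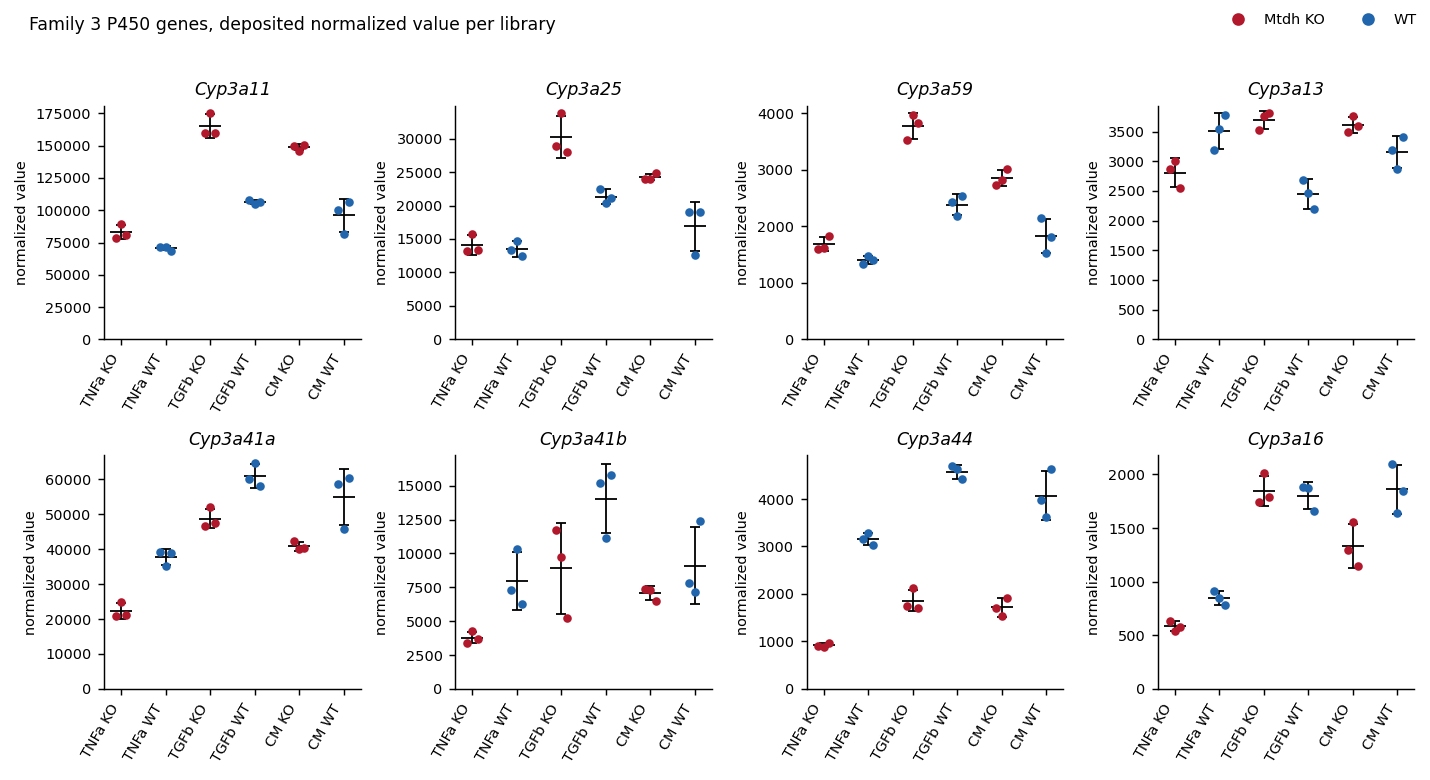
Deposited normalized value (y axis, from 0) of the 8 tested family 3 genes in each library, by group (x axis). Points are libraries, horizontal marks the mean of 3 and bars the SD. In the lower row the KO points of Cyp3a41a and Cyp3a44 lie below WT under every treatment, and in the upper row those of Cyp3a11 and Cyp3a59 lie above WT.

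Other genes of the cluster were also set against Cyp3a11 in the same library, which removes the scaling between libraries. The ratio of Cyp3a41a to Cyp3a11 ran between 0.260 and 0.297 in the 9 KO libraries and between 0.492 and 0.614 in the 9 WT libraries. For Cyp3a44 to Cyp3a11 it was 0.00997 to 0.0127 in KO and 0.0398 to 0.0461 in WT. Cyp3a41b to Cyp3a11 was wider, at 0.0326 to 0.0735 in KO and 0.0779 to 0.149 in WT. The genotypes did not overlap in these 3 ratios, and the treatments did overlap within each genotype for Cyp3a44. For Cyp3a16 to Cyp3a11 the genotypes met, at 0.00606 to 0.0114 in KO and 0.0114 to 0.0210 in WT, where the highest KO library lay just above the lowest WT library. The former was TGFb KO replicate 2 and the latter TNFa WT replicate 3. Within each treatment all KO ratios lay below all WT ratios. The ratio of Cyp3a59 to Cyp3a11 was 0.0180 to 0.0239 in KO and 0.0170 to 0.0239 in WT. These ratios were picked after the values had been seen and are given as a description, with no test. Their numerators and denominator include near-copies whose reads may be shared.

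**Figure D3:**
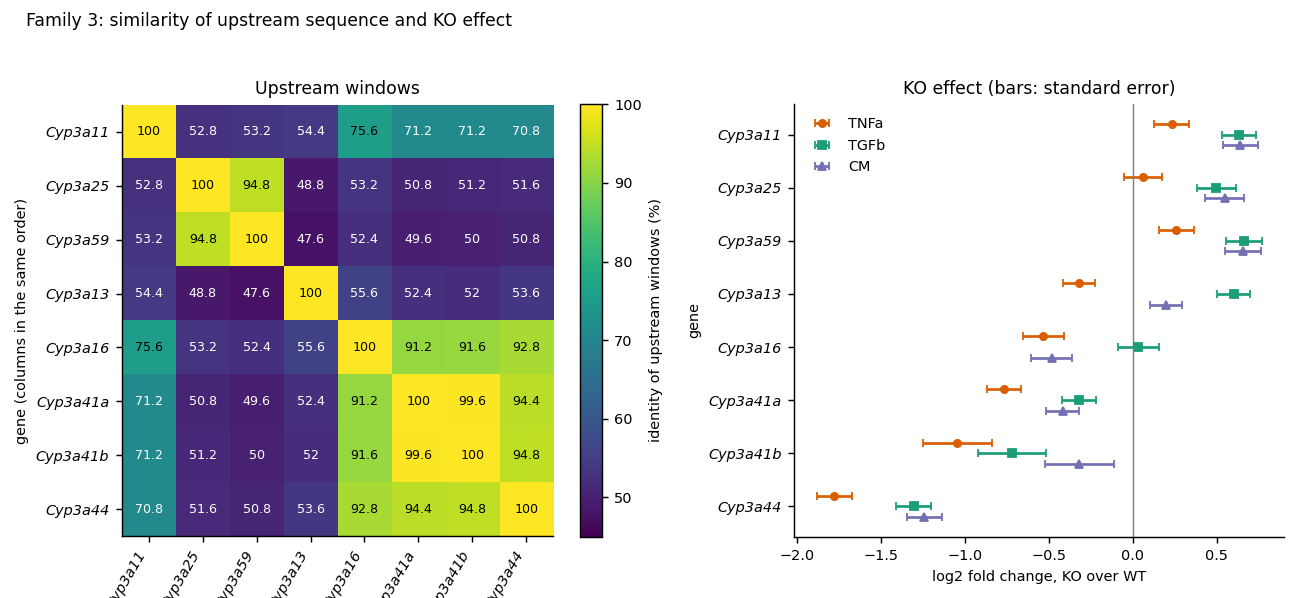
Left, identity in percent between the upstream windows of the 8 tested family 3 genes (colour and printed number, genes on both axes). Right, log2 fold change of KO over WT (x axis) with its standard error for the same genes (y axis) under TNFa, TGFb and CM. Cyp3a16, Cyp3a41a, Cyp3a41b and Cyp3a44, whose windows were at least 91.2% identical to each other, have no fold change above 0.03 ± 0.12 (Cyp3a16 with TGFb). Cyp3a25 and Cyp3a59, at 94.8%, have none below 0.06 ± 0.12 (Cyp3a25 with TNFa), and these limits lie within a standard error of each other. Cyp3a11 has none below 0.23, with a window 75.6% identical to that of Cyp3a16, 71.2% to Cyp3a41a, 52.8% to Cyp3a25 and 53.2% to Cyp3a59. Cyp3a13 went both ways.

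Cyp3a13 (ENSMUSG00000029727, chromosome 5, 137891194 to 137919882, minus strand, mm39), an enzyme of intestine and liver encoded outside the cluster, was the 1 gene of the 42 whose calls went in both directions. With TNFa, Cyp3a13 had 2878, 3012 and 2543 in KO hepatocytes, against 3187, 3553 and 3786 in WT hepatocytes. With TGFb, Cyp3a13 had 3528, 3767 and 3811 in KO hepatocytes, against 2689, 2462 and 2190.3 in WT hepatocytes. With CM, Cyp3a13 had 3487, 3764 and 3589.8 in KO hepatocytes, against 3194, 2879 and 3405 in WT hepatocytes. KO libraries were all below WT with TNFa and all above WT with TGFb and with CM. The log2 fold change was -0.32 ± 0.10, adjusted p = 0.0365 with TNFa, 0.60 ± 0.10, adjusted p = 3.53e-05 with TGFb and 0.20 ± 0.10, adjusted p = 0.241 with CM. The KO effect differed between treatments in the limma F-test (adjusted p = 0.00108). The TNFa call on its own was lost without KO replicate 1 or 3 or WT replicate 2 or 3, with log2 fold changes between -0.34 and -0.25 and adjusted p between 0.069 and 0.182 and with values scaled to equal totals (-0.29, adjusted p = 0.059).

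Cyp4f14 (ENSMUSG00000024292, chromosome 17, 33124044 to 33136317, minus strand, mm39) was the other gene among the 33 that passed this F-test (adjusted p = 0.0462), beside 1.7% of all tested genes. It hydroxylates leukotrienes and vitamin E in mouse liver. With TNFa, Cyp4f14 had 2504, 2763 and 2697 in KO hepatocytes, against 2106, 2055 and 1916 in WT hepatocytes. With TGFb, Cyp4f14 had 6629, 6474 and 6778 in KO hepatocytes, against 3674, 3707 and 3263 in WT hepatocytes. With CM, Cyp4f14 had 5244, 5379.8 and 5091 in KO hepatocytes, against 3910.3, 3410.3 and 3420.5 in WT hepatocytes. All KO libraries were above the WT libraries of the same treatment. Its log2 fold change was 0.39 ± 0.09, adjusted p = 0.0031 with TNFa, 0.90 ± 0.09, adjusted p = 3.69e-09 with TGFb and 0.55 ± 0.09, adjusted p = 3.84e-05 with CM. The F-test call was lost without any 1 of 14 of the 18 libraries (adjusted p between 0.0546 and 0.141, every library but TGFb KO replicate 2 and the CM WT replicates), without the filter (adjusted p = 0.0517) and with equal totals (adjusted p = 0.139).

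Cyp4f15 (ENSMUSG00000073424, chromosome 17, 32904601 to 32922327, plus strand, mm39), a nearby eicosanoid hydroxylase, had the largest rise among the called genes of family 4 with TGFb. With TNFa, Cyp4f15 had 1026, 857 and 851 in KO hepatocytes, against 559, 451 and 589 in WT hepatocytes. With TGFb, Cyp4f15 had 2488, 2312 and 2649 in KO hepatocytes, against 1056, 932 and 1149 in WT hepatocytes. With CM, Cyp4f15 had 1763, 2186 and 2028 in KO hepatocytes, against 1493, 969 and 1084 in WT hepatocytes. No KO library reached down to the WT range of its treatment. The log2 fold changes were 0.78 ± 0.14, adjusted p = 0.000403 with TNFa, 1.25 ± 0.14, adjusted p = 1.16e-07 with TGFb and 0.77 ± 0.14, adjusted p = 0.00034 with CM.

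Of the 13 tested family 4 genes, 3 were higher and 1 lower in KO with TNFa, 4 and 0 with TGFb, and 3 and 0 with CM. The genes higher under at least 1 treatment were Cyp4f14, Cyp4f15, Cyp4b1 and Cyp4v3. Cyp4b1 (ENSMUSG00000028713, chromosome 4, 115481922 to 115504921, minus strand, mm39) oxidises fatty acids and pneumotoxic compounds. With TNFa, Cyp4b1 had 398, 508 and 348 in KO hepatocytes, against 166, 204 and 266 in WT hepatocytes. With TGFb, Cyp4b1 had 299, 269 and 267 in KO hepatocytes, against 155, 170.5 and 151 in WT hepatocytes. With CM, Cyp4b1 had 244, 302 and 274 in KO hepatocytes, against 159.7, 260.5 and 217 in WT hepatocytes. The genotypes were apart with TNFa and TGFb and overlapped with CM. Log2 fold changes were 0.99 ± 0.23, adjusted p = 0.00628 with TNFa, 0.80 ± 0.23, adjusted p = 0.02 with TGFb and 0.38 ± 0.23, adjusted p = 0.369 with CM. The TNFa call was lost without KO replicate 2 (0.84, adjusted p = 0.0567) or WT replicate 1 (0.82, adjusted p = 0.0507), and the TGFb call without KO replicate 1 or WT replicate 1 or 3 (0.75 to 0.79, adjusted p 0.0579 to 0.0768).

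Cyp4v3 (ENSMUSG00000079057, chromosome 8, 45757981 to 45786254, minus strand, mm39) is the mouse counterpart of the human fatty acid hydroxylase CYP4V2. With TNFa, Cyp4v3 had 3167, 3425 and 3309.6 in KO hepatocytes, against 3141, 2963 and 3196 in WT hepatocytes. With TGFb, Cyp4v3 had 5263, 5943 and 5366 in KO hepatocytes, against 4234, 4595 and 4597 in WT hepatocytes. With CM, Cyp4v3 had 5134, 5167 and 5028 in KO hepatocytes, against 3570.0, 3558 and 3761 in WT hepatocytes. KO libraries stood above WT with TGFb and CM, and the TNFa groups overlapped. The log2 fold change was 0.09 ± 0.08, adjusted p = 0.59 with TNFa, 0.30 ± 0.08, adjusted p = 0.0104 with TGFb and 0.49 ± 0.08, adjusted p = 7.63e-05 with CM. The TGFb call was lost with equal totals (0.19, adjusted p = 0.0924) and without KO replicate 2 (0.25, adjusted p = 0.0584) or WT replicate 1 (0.26, adjusted p = 0.0689).

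The Cyp4a genes, fatty acid hydroxylases known as targets of PPARalpha, were called higher in none of the 3 comparisons. The most abundant of them was Cyp4a14 (ENSMUSG00000028715, chromosome 4, 115343397 to 115353340, minus strand, mm39). With TNFa, Cyp4a14 had 6563, 6266 and 6839 in KO hepatocytes, against 10162, 8678 and 9954 in WT hepatocytes. With TGFb, Cyp4a14 had 17336, 13588 and 14511 in KO hepatocytes, against 15851, 15554 and 15624 in WT hepatocytes. With CM, Cyp4a14 had 11006, 11324 and 9585 in KO hepatocytes, against 12427, 12061 and 12529 in WT hepatocytes. It was below WT in each KO library with TNFa and CM and overlapped with TGFb. It fell with TNFa (log2 fold change -0.55 ± 0.09, adjusted p = 0.000103), with values of -0.06 ± 0.09, adjusted p = 0.767 for TGFb and -0.22 ± 0.09, adjusted p = 0.139 for CM. Cyp4a10 passed in no KO comparison, at -0.25 ± 0.09, adjusted p = 0.0854 with TNFa, 0.03 ± 0.09, adjusted p = 0.882 with TGFb and 0.07 ± 0.09, adjusted p = 0.74 with CM. Reads of Cyp4a10 may be shared with Cyp4a32 and Cyp4a31, whose coding sequences are 97.2% and 96.6% identical to it. With TNFa, Cyp4a10 had 5042, 5322 and 4924 in KO hepatocytes, against 6419, 5648 and 6084 in WT hepatocytes. With TGFb, Cyp4a10 had 12337, 10320.5 and 9775 in KO hepatocytes, against 10398, 10681 and 10487 in WT hepatocytes. With CM, Cyp4a10 had 8829.8, 9337 and 8060.2 in KO hepatocytes, against 8489, 7764 and 8800.2 in WT hepatocytes. The TNFa KO libraries lay below those of TNFa WT, and the other pairs overlapped.

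The rest of family 4, Cyp4a31, Cyp4a32, Cyp4f13, Cyp4f16, Cyp4f17, Cyp4f18 and Cyp4x1, passed in no KO comparison. Among them Cyp4f16 averaged 730.4 ± 40.3 in TNFa KO hepatocytes and 942 ± 80.0 in TNFa WT hepatocytes (SD, n = 3 each), with KO below WT in all libraries of TNFa and TGFb, at log2 fold changes of -0.37 ± 0.13, adjusted p = 0.0968 and -0.18 ± 0.13, adjusted p = 0.454.

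In family 1, Cyp1a2 (ENSMUSG00000032310, chromosome 9, 57584220 to 57590987, minus strand, mm39) was the 1 gene with a mean above 50. It oxidises caffeine and aromatic amines and is a target of the aryl hydrocarbon receptor. With TNFa, Cyp1a2 had 2461, 2316 and 2413 in KO hepatocytes, against 1404, 1249 and 1674 in WT hepatocytes. With TGFb, Cyp1a2 had 5164, 4616 and 5441 in KO hepatocytes, against 2719.6, 3095 and 2983 in WT hepatocytes. With CM, Cyp1a2 had 3793, 3776 and 3841 in KO hepatocytes, against 2855, 3015 and 2766 in WT hepatocytes. KO libraries were above WT throughout, without overlap. The rise was 0.74 ± 0.10, adjusted p = 3.69e-06 with TNFa, 0.79 ± 0.10, adjusted p = 5.77e-07 with TGFb and 0.40 ± 0.10, adjusted p = 0.00627 with CM, on the log2 scale. Cyp1a1, the most inducible target of the same receptor, stayed between 0 and 51.2 in all libraries and passed in no KO comparison. Of 5 tested non-P450 targets of the receptor, 0 were higher and 1 lower in KO with TNFa, 2 and 0 with TGFb, and 0 and 1 with CM. Tiparp, a target that acts back on the receptor, had log2 fold changes of -0.40 ± 0.09, adjusted p = 0.00418 with TNFa, 0.31 ± 0.09, adjusted p = 0.0207 with TGFb and -0.34 ± 0.09, adjusted p = 0.0117 with CM. Ahr, the receptor itself, fell with TGFb (-0.35 ± 0.10, adjusted p = 0.0236) and CM (-0.37 ± 0.10, adjusted p = 0.0192). Whether the receptor contributes to the difference in Cyp1a2 was not tested.

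Outside families 1, 3 and 4, 10 genes were tested, of which 4 were higher and 1 lower in KO with TNFa, 3 and 1 with TGFb, and 2 and 0 with CM. Cyp17a1 (ENSMUSG00000003555, chromosome 19, 46655604 to 46661612, minus strand, mm39), the hydroxylase and lyase of androgen synthesis, had the largest rise of the 19 called genes with TGFb and CM. With TNFa, Cyp17a1 had 641, 468 and 464 in KO hepatocytes, against 238, 183 and 219 in WT hepatocytes. With TGFb, Cyp17a1 had 1198, 979 and 943 in KO hepatocytes, against 318, 383 and 304 in WT hepatocytes. With CM, Cyp17a1 had 916, 854 and 728 in KO hepatocytes, against 329, 442 and 314 in WT hepatocytes. The lowest KO library exceeded the highest WT library under every treatment. Log2 fold changes were 1.28 ± 0.18, adjusted p = 1.06e-05 with TNFa, 1.63 ± 0.18, adjusted p = 7.85e-08 with TGFb and 1.21 ± 0.18, adjusted p = 2.11e-05 with CM. The adrenal steroid hydroxylases Cyp11b1 and Cyp21a1, read at means of 41.4 and 19.7 over all libraries, passed in none of these comparisons.

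Cyp26a1 (ENSMUSG00000024987, chromosome 19, 37686246 to 37689985, plus strand, mm39) clears retinoic acid and is induced by it, and its upstream window above holds the direct repeat. With TNFa, Cyp26a1 had 353, 402 and 562 in KO hepatocytes, against 272, 210.3 and 212 in WT hepatocytes. With TGFb, Cyp26a1 had 1527, 1370.4 and 1751 in KO hepatocytes, against 733, 898 and 665 in WT hepatocytes. With CM, Cyp26a1 had 1115, 999 and 1109 in KO hepatocytes, against 569, 357 and 503 in WT hepatocytes. KO was above WT in all libraries. The log2 fold change was 0.90 ± 0.18, adjusted p = 0.00119 with TNFa, 1.02 ± 0.18, adjusted p = 0.000135 with TGFb and 1.20 ± 0.18, adjusted p = 2.70e-05 with CM.

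Cyp26b1 (ENSMUSG00000063415, chromosome 6, 84548396 to 84570891, minus strand, mm39), which clears retinoic acid as well, showed the largest rise of all 19 genes with TNFa. With TNFa, Cyp26b1 had 221, 175 and 136 in KO hepatocytes, against 59.0, 62.2 and 46.8 in WT hepatocytes. With TGFb, Cyp26b1 had 619, 487 and 603 in KO hepatocytes, against 466, 389.9 and 233 in WT hepatocytes. With CM, Cyp26b1 had 337, 343 and 373 in KO hepatocytes, against 268, 258 and 232 in WT hepatocytes. The genotypes were apart under each treatment. It rose with TNFa (1.63 ± 0.25, adjusted p = 4.13e-05), while 0.70 ± 0.25, adjusted p = 0.0662 with TGFb and 0.47 ± 0.25, adjusted p = 0.286 with CM did not pass. A difference between treatments in this effect did not pass either (F-test adjusted p = 0.13). Rara and Rarb, receptors for retinoic acid, passed in no KO comparison, at log2 fold changes of -0.42 and -0.49 with TNFa, 0.08 and -0.71 with TGFb and -0.32 and -0.85 with CM.

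**Figure D4:**
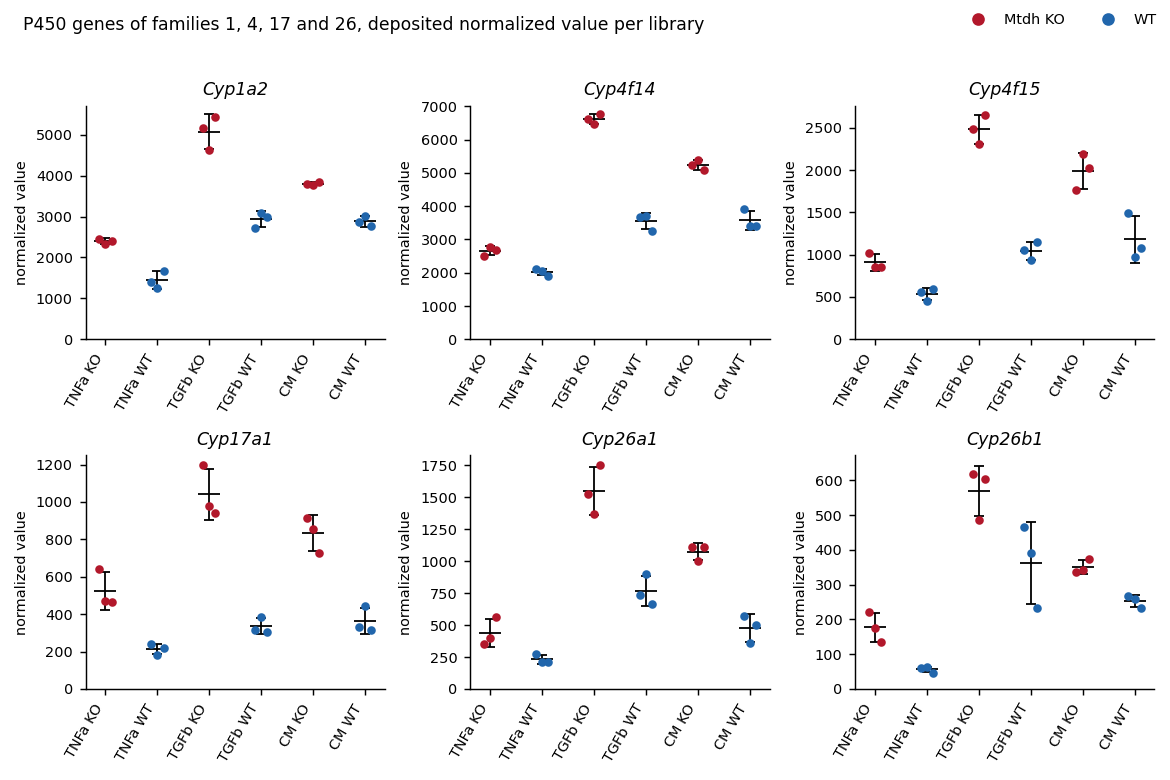
Deposited normalized value (y axis, from 0) of Cyp1a2, Cyp4f14, Cyp4f15, Cyp17a1, Cyp26a1 and Cyp26b1 in each library, by group (x axis). Points are libraries, horizontal marks the mean of 3 and bars the SD. KO points lie above WT points within each treatment in all 6 panels.

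Cyp39a1 (ENSMUSG00000023963, chromosome 17, 43978316 to 44062323, plus strand, mm39), an oxysterol hydroxylase of bile acid synthesis, had genotypes that did not overlap. With TNFa, Cyp39a1 had 705, 645 and 552 in KO hepatocytes, against 505, 358 and 453 in WT hepatocytes. With TGFb, Cyp39a1 had 1191, 1127 and 1383 in KO hepatocytes, against 643, 626 and 649 in WT hepatocytes. With CM, Cyp39a1 had 1054, 927 and 985 in KO hepatocytes, against 762, 765 and 679.9 in WT hepatocytes. It rose with TNFa (0.54 ± 0.14, adjusted p = 0.0135) and TGFb (0.94 ± 0.14, adjusted p = 1.16e-05), with 0.43 ± 0.14, adjusted p = 0.0525 for CM. The TNFa call was lost without KO replicate 1 (0.46, adjusted p = 0.086) or WT replicate 2 (0.40, adjusted p = 0.111).

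Cyp20a1 (ENSMUSG00000049439, chromosome 1, 60382482 to 60427220, plus strand, mm39), a P450 without an assigned substrate, was lower in KO under 2 treatments. With TNFa, Cyp20a1 had 1739.6, 1673 and 1833 in KO hepatocytes, against 2327, 2184 and 2448 in WT hepatocytes. With TGFb, Cyp20a1 had 1839, 1791 and 1645 in KO hepatocytes, against 2046, 2233 and 2429 in WT hepatocytes. With CM, Cyp20a1 had 2265, 2149.7 and 1969.7 in KO hepatocytes, against 1860.0, 2112 and 2203 in WT hepatocytes. The groups were apart with TNFa and TGFb and overlapped with CM. Its log2 fold change was -0.41 ± 0.10, adjusted p = 0.00756 with TNFa, -0.34 ± 0.10, adjusted p = 0.0181 with TGFb and 0.05 ± 0.10, adjusted p = 0.84 with CM. The TNFa call was lost without WT replicate 3 (-0.37, adjusted p = 0.0512), and the TGFb call without KO replicate 3 or WT replicate 2 or 3 (-0.34 to -0.28, adjusted p 0.0537 to 0.119).

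The same genes also differed between treatments. Comparisons of treatments share groups with each other and with the KO comparisons, so they are not independent of one another. With TNFa against TGFb, 1 gene was higher and 19 were lower in KO hepatocytes, beside 10.1% of all genes called higher and 12.3% called lower, or 22.4% together, and 2 were higher and 18 lower in WT hepatocytes, beside 5.33% and 8.06% of all genes, or 13.4% together. The gene higher in KO was Cyp11b1, and those higher in WT were Cyp3a13 and Cyp4f16. The same 18 genes were lower with TNFa in both genotypes. They comprise 7 of the 8 tested family 3 genes, Cyp1a2, Cyp4a10, Cyp4a14, Cyp4f13, Cyp4f14, Cyp4f15, Cyp4v3, Cyp17a1, Cyp26a1, Cyp26b1 and Cyp39a1. The largest of these falls was that of Cyp26b1 in WT, at a log2 fold change of -2.63 ± 0.25, adjusted p = 5.10e-09, and it was -1.70 ± 0.25, adjusted p = 3.85e-06 in KO. Cyp26a1 had -1.84 ± 0.18, adjusted p = 2.72e-09 in KO and -1.72 ± 0.18, adjusted p = 3.14e-08 in WT. Cyp3a13 was lower with TNFa in KO (-0.40 ± 0.10, adjusted p = 0.00239) and higher in WT (0.52 ± 0.10, adjusted p = 0.000206), and its KO call was lost with equal totals (-0.14, adjusted p = 0.257). Whichever of the libraries compared was left out, 19 of the 20 calls in KO and 16 of the 20 in WT were kept. The WT calls of Cyp17a1 and Cyp39a1 were lost without TNFa WT replicate 2 (-0.54, adjusted p = 0.0754, and -0.42, adjusted p = 0.0654), and Cyp17a1 also without TGFb WT replicate 2 (-0.55, adjusted p = 0.0815). Cyp4f13 lost its WT call without TNFa WT replicate 2 or TGFb WT replicate 2 or 3 (-0.64 to -0.42, adjusted p 0.051 to 0.204) and with equal totals (-0.50, adjusted p = 0.0657). The WT call of Cyp4f16 (0.39 ± 0.13, adjusted p = 0.0497) was lost without TNFa WT replicate 2 or 3 or any 1 TGFb WT replicate (adjusted p up to 0.192) and with a pseudocount of 5 (adjusted p = 0.0527).

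With values scaled to equal totals per library, 5 of the P450 genes were higher and 18 lower with TNFa than with TGFb in KO, against 1 and 19 with the deposited scaling. That scaling moved the median of all genes to 0.29 in this comparison and to 0.11 in WT. The P450 genes' median log2 fold change was -1.06 in KO and -0.65 in WT with the deposited scaling. Hepatocyte markers moved the same way, with 8 of 8 lower with TNFa than with TGFb in KO and 5 of 8 in WT. Their summed value lay between 1431082 and 1520329 in TNFa KO, against 2851065 and 3069081 in TGFb KO, and between 1489146 and 1566354 in TNFa WT, against 2022178 and 2135141 in TGFb WT. Whether this contributes to the difference in P450 genes was not tested.

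**Figure D5:**
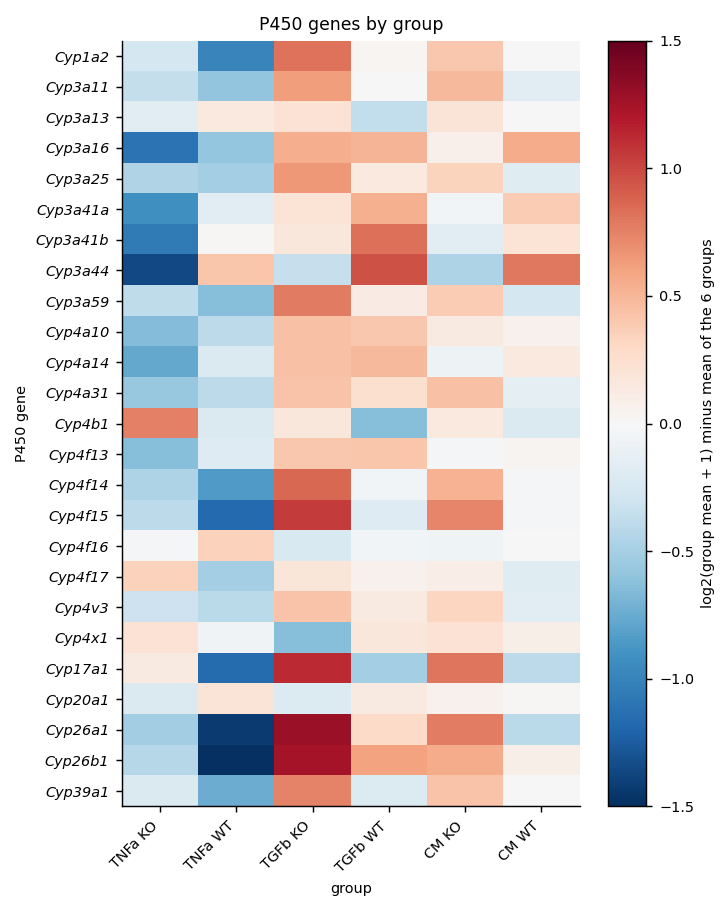
Heat map of the 25 tested P450 genes whose mean reached 50 (rows) in the 6 groups (columns), coloured by log2 of the group mean plus 1, minus the gene's average over the groups. Blue, the low end, fills most of the 2 TNFa columns. Over all 33 tested genes, including 8 with a mean below 50 that are not shown, the TNFa group was the lowest of its genotype for 25 in KO and 24 in WT. No such count was made over all tested genes.

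With CM against TNFa, 19 genes were higher and 0 lower in KO, beside 8.38% of all genes called higher and 4.32% called lower, or 12.7% together, and 14 were higher and 0 lower in WT, beside 6.81% and 5.46% of all genes, or 12.3% together. All 14 of the WT calls were also made in KO. With equal totals 17 were higher and 1 lower in KO, and 13 higher and 1 lower in WT. Hepatocyte markers moved the same way, with 8 of 8 higher with CM than with TNFa in KO and 5 of 8 in WT, at a median log2 fold change of 0.74 in KO and 0.42 in WT beside 0.73 and 0.36 for the P450 genes. Their summed value lay between 2330491 and 2409253 in CM KO, against 1431082 and 1520329 in TNFa KO, and between 1726093 and 1807162 in CM WT, against 1489146 and 1566354 in TNFa WT. Whether this contributes to the difference in P450 genes was not tested. The largest rises were those of Cyp26a1 in KO (1.32 ± 0.18, adjusted p = 3.01e-06) and Cyp26b1 in WT. Cyp26b1 was at 1.01 ± 0.25, adjusted p = 0.00508 in KO and 2.16 ± 0.25, adjusted p = 2.63e-07 in WT. Cyp4f15 rose by 1.13 ± 0.14 in KO and 1.13 ± 0.14 in WT, and Cyp3a16 by 1.18 ± 0.12 and 1.13 ± 0.12. Calls kept without any 1 library numbered 16 of 19 in KO and 12 of 14 in WT. Those not kept were Cyp17a1 (0.60, without TNFa KO replicate 2 or 3 or CM KO replicate 1, adjusted p up to 0.0613), Cyp3a13 (down to 0.29, without TNFa KO replicate 3 or CM KO replicate 2, adjusted p up to 0.0758, and 0.21 with equal totals, adjusted p = 0.126) and Cyp4f13 (down to 0.54, without TNFa KO replicate 1 or 2 or CM KO replicate 1, adjusted p up to 0.109, and 0.48 with equal totals, adjusted p = 0.072) in KO. In WT they were Cyp3a44 (down to 0.26, without TNFa WT replicate 1 or 3 or CM WT replicate 3, adjusted p up to 0.132, and 0.31 with equal totals, adjusted p = 0.0501) and Cyp3a59 (down to 0.25, without TNFa WT replicate 1 or 3 or CM WT replicate 1, adjusted p up to 0.173).

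Between CM and TGFb fewer of the genes were called. With CM against TGFb, 0 genes were higher and 7 lower in KO, beside 5.2% of all genes called higher and 5.39% called lower, or 10.6% together, and 2 were higher and 7 lower in WT, beside 5.76% and 6.09% of all genes, or 11.8% together. Cyp3a59, Cyp4a10 and Cyp4a14 were lower with CM in both genotypes. The clearest of these was Cyp4a14, at -0.51 ± 0.09, adjusted p = 0.000216 in KO and -0.35 ± 0.09, adjusted p = 0.00897 in WT. Calls kept without any 1 library numbered 3 of 7 in KO and 1 of 9 in WT, where Cyp4a14 was the gene kept. In KO 4 calls were made without CM KO replicate 1 or without CM KO replicate 3, and in WT 5 without TGFb WT replicate 2 and 3 without TGFb WT replicate 3 or without CM WT replicate 2. With equal totals they were 1 higher and 4 lower in KO and 2 higher and 4 lower in WT. The WT calls of Cyp3a59 and Cyp4a10 were lost without CM WT replicate 2 (-0.27, adjusted p = 0.122, and -0.28, adjusted p = 0.0535), that of Cyp3a59 also without TGFb WT replicate 1 or 3. Other WT calls that were lost without at least 1 library are those of Cyp26a1 (-0.58 to -0.50, without TGFb WT replicate 2 or CM WT replicate 2, adjusted p up to 0.0897), Cyp3a13 (0.29 to 0.31, without TGFb WT replicate 3 or CM WT replicate 3, adjusted p up to 0.0872) and Cyp4v3 (-0.28, without TGFb WT replicate 2 or 3, adjusted p up to 0.0549). Cyp3a25 was lost in WT without any 1 TGFb WT replicate or CM WT replicate 2 (-0.39 to -0.16, adjusted p up to 0.336), and Cyp3a41b without TGFb WT replicate 1 or 3 or CM WT replicate 1 or 2 (-0.59 to -0.50, adjusted p up to 0.169). In KO, Cyp3a16 was lost without CM KO replicate 3 (-0.38, adjusted p = 0.0861), and Cyp3a59 was lost without CM KO replicate 1 (-0.37, adjusted p = 0.0656) and with equal totals (-0.30, adjusted p = 0.069). Cyp4a10 was lost in KO without TGFb KO replicate 1 or CM KO replicate 1 or 3 (-0.31 to -0.20, adjusted p up to 0.192) and with equal totals (-0.20, adjusted p = 0.108). Cyp4f18, a leukotriene hydroxylase of myeloid cells, was listed at 0 in all 3 CM KO libraries and at 41.8, 17 and 26.3 in TGFb KO libraries, a call that was lost without TGFb KO replicate 1 or 3 or CM KO replicate 1 or 3 (adjusted p up to 0.0878).

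Cyp4f13 and Cyp11b1 were called between treatments in both genotypes but in no KO comparison. With TNFa, Cyp4f13 had 291, 295 and 421 in KO hepatocytes, against 536, 339 and 496 in WT hepatocytes. With TGFb, Cyp4f13 had 804, 571 and 708 in KO hepatocytes, against 592, 829 and 667 in WT hepatocytes. With CM, Cyp4f13 had 573, 483 and 486 in KO hepatocytes, against 595, 506 and 513 in WT hepatocytes. KO and WT overlapped under each treatment. Cyp11b1, which completes corticosterone in the adrenal, was low throughout. With TNFa, Cyp11b1 had 48.5, 35.9 and 65.4 in KO hepatocytes, against 49.9, 68.4 and 65.5 in WT hepatocytes. With TGFb, Cyp11b1 had 12.1, 10.2 and 19.1 in KO hepatocytes, against 42.9, 19.1 and 8.72 in WT hepatocytes. With CM, Cyp11b1 had 40.8, 28.0 and 14.1 in KO hepatocytes, against 85.2, 82.0 and 49.8 in WT hepatocytes. It was higher with TNFa than with TGFb in KO (1.79 ± 0.60, adjusted p = 0.0286) and higher with CM than with TGFb in WT (1.80 ± 0.60, adjusted p = 0.0456). The first call was lost without TNFa KO replicate 1 or 3 or TGFb KO replicate 1 or 2 (adjusted p up to 0.108), and the second without TGFb WT replicate 2 or 3 or CM WT replicate 1 or 2 (adjusted p up to 0.237) and with no filter on low values (adjusted p = 0.0725).

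Electron donors of P450s were read beside them, together with the heme-binding proteins Pgrmc1 and Pgrmc2, which bind P450s. Of these 8 genes, 1, 3 and 3 were higher in KO under TNFa, TGFb and CM, and 0 were lower in each. Cyb5a, the microsomal cytochrome b5, rose by 0.41 ± 0.10 with TNFa, 0.71 ± 0.10 with TGFb and 0.79 ± 0.10 with CM on the log2 scale. Cyb5b rose with TGFb (0.65 ± 0.09, adjusted p = 1.69e-06) and CM (0.38 ± 0.09, adjusted p = 0.0037). Por, the reductase that serves all microsomal P450s, passed in none of the KO or treatment comparisons, at -0.03 ± 0.13 with TNFa, 0.15 ± 0.13 with TGFb and -0.05 ± 0.13 with CM for KO. Of 11 genes of heme synthesis and breakdown, 1 was higher with TNFa, 1 with TGFb and 2 with CM in KO, and 0 were lower. Of all tested genes, 4.19%, 7.25% and 5.62% were called higher in these comparisons. Hmox1, which breaks heme down, rose with TNFa (0.37 ± 0.08, adjusted p = 0.00257) and CM (0.71 ± 0.08, adjusted p = 2.30e-07). Alad, an early enzyme of heme synthesis, rose with TGFb (0.79 ± 0.15, adjusted p = 0.000211) and CM (0.85 ± 0.15, adjusted p = 0.000137). Alas1, its rate-limiting enzyme, had -0.07, 0.25 and -0.02 with TNFa, TGFb and CM, none of which passed.

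Among 16 tested receptors and factors that control P450 genes, 0 were higher and 1 lower in KO with TNFa, 3 and 1 with TGFb, and 1 and 1 with CM. The shares of all tested genes were 4.19% and 3.7% with TNFa, 7.25% and 4.95% with TGFb, and 5.62% and 3.77% with CM. Nr1i3, the constitutive androstane receptor, rose with TGFb (1.11 ± 0.29, adjusted p = 0.0106) and had 0.58 with TNFa and 0.47 with CM. Nr1i2, the pregnane X receptor, passed in no comparison, at 0.20, 0.28 and 0.15 for KO with TNFa, TGFb and CM. Hnf4a, a factor that most hepatic P450 genes depend on, fell in KO with TNFa (-0.38 ± 0.11, adjusted p = 0.0234). Ppara itself passed in no KO comparison. Of its 14 non-P450 targets on the list, 3, 5 and 1 were higher in KO under TNFa, TGFb and CM, and 0 were lower, while Cyp4a10 passed in none and Cyp4a14 was lower with TNFa. Between treatments, 12 of the 14 targets were lower and 1 higher with TNFa than with TGFb, in KO and in WT. Of all tested genes, 12.3% were called lower in KO and 8.06% in WT. In the same comparison 8 of 8 hepatocyte markers were lower in KO and 5 of 8 in WT. Cyp4a14 was at -1.20 ± 0.09 in KO and -0.71 ± 0.09 in WT, on the log2 scale. Whether PPARalpha contributes to the differences in Cyp4a genes was not tested.

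Because Cyp3a41a, Cyp3a41b and Cyp3a44 are known to differ by sex, other sex-dependent genes were read. The Y-linked Ddx3y and Eif2s3y did not exceed 4.88 and 8.84 in any library, and Kdm5d and Uty lay between 30.9 and 114.0 and between 14.2 and 125.8. The male-predominant Cyp4a12a and Cyp4a12b did not exceed 14.4, and Hsd3b5 did not exceed 12.8. KO and WT libraries overlapped in Kdm5d and in Uty under each treatment. Of 14 non-P450 genes known as female-biased, 5 were higher and 2 lower in KO with TNFa, 6 and 3 with TGFb, and 4 and 2 with CM. Their log2 fold changes ran between -5.783 and 2.831 with TNFa, -3.285 and 3.435 with TGFb, and -4.653 and 2.215 with CM. The lowest value with TNFa and with CM was also the lowest of all 14455 tested genes. Among the 14, Sult3a2 was at 0 in all TNFa KO libraries. Sult3a1, a sulfotransferase, fell with each treatment, as Cyp3a44 did, at log2 fold changes of -1.51 ± 0.19 with TNFa, -1.61 ± 0.19 with TGFb and -2.14 ± 0.19 with CM. Others of these genes rose with each treatment, among them the hydroxysteroid sulfotransferase Sult2a1, at 0.38 ± 0.09 with TNFa, 0.98 ± 0.09 with TGFb and 0.80 ± 0.09 with CM. Atp6v0d2, a subunit of the vacuolar proton pump, was higher in KO by 2.33 ± 0.32 with TNFa, 2.31 ± 0.32 with TGFb and 1.41 ± 0.32 with CM. Of 9 tested male-biased genes, 0 were higher and 2 lower with TNFa, 1 and 1 with TGFb, and 0 and 1 with CM. Slco1a1, an organic anion transporter, was the 1 lower in each, at -0.72 ± 0.21 with TNFa, -1.02 ± 0.21 with TGFb and -1.16 ± 0.21 with CM.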

How the data were processed

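RNA of hepatocytes was sequenced in 18 libraries, 3 in each of 6 groups; total RNA was depleted of ribosomal RNA, per the labels' protocols. For each gene the authors deposited a signal per library that the table's name calls DESeq2-normalized. The submitters' processing notes list the tools STAR 2.7.8a, Partek and DESeq2 and the build mm39, and give neither their order nor their settings. Whole reads could not be recovered, since no library had more than 77.3% of its low values within 0.05 reads of a whole multiple, and no count test was run.

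Tests used log2 of the value plus 1, so that fold changes of low genes are understated. Genes with at least 10 in at least 3 libraries were fitted with limma 3.58.1 (trend, R 4.3.3) as 6 group means, and p-values were adjusted by Benjamini-Hochberg over all 14455 genes. The F-test asks whether the KO effect differs between treatments. The script was tested on simulated data. Depth was estimated from the value of 1 read, and it limits the lowest genes most. Alternatives were a pseudocount of 5, no filter, equal totals, the replicate number as a block or as an estimated correlation, and leaving out each library.

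The genes and gene lists were chosen with earlier results of these data known. Values per library are given for genes called in a KO comparison or the F-test, or between treatments in both genotypes. Up to 4 called genes of a list were named, and some results are not reported here. Por, Alas1, Nr1i2, Ppara, Rara and Rarb were named outside this rule, after their values were seen. Upstream windows are RefSeq's on GRCm38.p6, and their identity is 100 minus the edits per 100 bases.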

Additional observations from a re-analysis of the deposited data

Results flagged for a closer look

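The difference between the KO and WT hepatocytes was not the same under the 3 treatments for 2 of the 33 tested P450 genes, by the limma F-test of that difference, beside 1.7% of all 14455 tested genes. For Cyp3a13 the adjusted p was 0.001075, with KO lower than WT with TNFa (log2 fold change -0.32 ± 0.10) and higher with TGFb (0.60 ± 0.10). For Cyp4f14 it was 0.04619, with KO higher than WT under each treatment and the largest difference with TGFb (0.90 ± 0.09, against 0.39 ± 0.09 with TNFa and 0.55 ± 0.09 with CM). The call for Cyp4f14 was lost without any 1 of 14 of the 18 libraries (adjusted p between 0.0546 and 0.141), without the filter on low values (0.0517) and with equal totals (0.139), while that for Cyp3a13 was kept in each of these.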

How the results depend on the processing

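Of 134 calls on single genes, a pseudocount of 5 lost 1, no filter 5, equal totals 14, the replicate block 6 and the block by estimated correlation 0, with no change of direction. With the replicate number as a block, the calls numbered 14, 15 and 12 in KO against WT under TNFa, TGFb and CM, 20 and 19 for TNFa against TGFb in KO and WT, 19 and 14 for CM against TNFa, and 7 and 7 for CM against TGFb. Libraries share only a number: deviations from the group means correlated between -0.07 and 0.05 over 45 pairs with the same number, and 16 of 45 such pairs were the best match. The 6 calls lost with the block were Cyp3a13 (KO against WT with TNFa, adjusted p = 0.0515), Cyp3a41a (KO against WT with TGFb, 0.0501), Cyp4f14 (F-test, 0.0613), Cyp4f16 (TNFa against TGFb in WT, 0.0587), and Cyp11b1 (0.0515) and Cyp3a25 (0.0514) for CM against TGFb in WT. The count for the F-test was 1 with no filter, with equal totals and with the block. Leaving out 1 library gave 13 to 15 calls in KO against WT with TNFa, 12 to 15 with TGFb, 11 to 12 with CM and 1 to 3 for the F-test. The ranges were 19 to 21 and 16 to 20 for TNFa against TGFb in KO and WT, 17 to 21 and 12 to 15 for CM against TNFa, and 4 to 7 and 3 to 8 for CM against TGFb. Fewer libraries were fitted in each of these. Equal totals split CM against TGFb into 1 higher and 4 lower in KO (5 in all) and 2 and 4 in WT (6 in all). The cause of the lost calls under equal totals was not tested. Depth limits the genes near the filter, such as Cyp4f18 and Cyp11b1.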
